A study of Rattus norvegicus with 12 samples.

Results

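The data described here are the 3 RNA libraries of normoxic rat hippocampus, chosen by their titles and their treatment label from 12 libraries in the series. The series compared male rats kept in normoxia for 4 weeks with male rats exposed to chronic intermittent hypoxia for 4 weeks, with 3 RNA and 3 small RNA libraries in each group. The exposed group and the small RNA libraries were not analysed here. All 3 libraries, control replicates 1, 2 and 3, were made from total RNA of the hippocampus of male rats, and no allele, drug or other agent is named for them. The labels give no strain or age and do not say whether each library came from a separate animal, so every spread below is the spread between these libraries, which may be technical. The table lists 26949 genes, and all of them were described in all 3 libraries.

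The hippocampus is a cortical structure for memory and navigation, built from the dentate gyrus and the fields CA3, CA2 and CA1. Its main neurons are glutamatergic, and smaller numbers of GABA-releasing interneurons, astrocytes, oligodendrocytes, microglia and vascular cells lie among them. The RNA of bulk tissue mixes all of these, so fewer cells of a type and less RNA per cell cannot be told apart in any value below.

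The libraries held 20392567, 19713519 and 21510725 estimated counts, and no pair agreed within sampling noise (chi-square per degree of freedom of 49.8 for replicates 1 and 2, 44.8 for 1 and 3, and 12.3 for 2 and 3). Replicate 1 stood apart from the others. Among 11030 genes with a mean of at least 10 TPM (a count corrected for gene length and scaled to the same total in every library), 319 genes lay at least 2-fold above or below both other libraries in replicate 1. The same number was 49 in replicate 2 and 44 in replicate 3. The genes behind this are described below, and values that rest on replicate 1 are given with and without it. Of the Y-linked genes of these male rats, Eif2s3y, which encodes a translation factor subunit, stood at 29.6, 26.5 and 28.8 TPM and the histone demethylase gene Kdm5d at 17.2, 13.4 and 14.6 TPM, while Ddx3y had 0, 2 and 5 counts and Usp9y 0, 23 and 0.

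A minority of the genes held most of the TPM. At a mean of at least 1 TPM stood 17356 genes (64.4% of the table), at least 10 TPM 11030 genes, at least 100 TPM 1913 genes and at least 1000 TPM 83 genes. The median was 4.60 TPM over all genes and 17.6 TPM over those at 1 TPM or more. A total of 1229 genes had no count in any library. A count of 0 allows up to 3 counts, which is 0.139 to 0.152 CPM (counts scaled to the library total) in these libraries, and this covers counting error only. The 10 highest genes of each library held 7.71% ± 0.833 of its TPM, the 100 highest 22.5% ± 0.974 and the 1000 highest 53.3% ± 0.526 (SD, n = 3). The 835 highest genes by mean held 50% of the mean TPM. By matched gene identifiers, protein-coding genes held 80.1% of the TPM and long non-coding RNAs 2.75%. The 7240 identifiers without a match held 16.7%, and their class is not known here.

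High TPM did not always mean many reads. The 83 genes at 1000 TPM or more held 20.7% of the TPM but 7.62% of the estimated counts, while 1830 genes between 100 and 1000 TPM held 44.1% and 46.8%. Of the 83, 31 were gene models for which the files give no name, and such models held 14.3% ± 1.15 of the TPM and 3.82% ± 0.295 of the counts (SD, n = 3). Counts that are not whole numbers mark reads shared out between gene models, and 19 of the 30 highest genes (8 with a name and 11 without) had them in every library. Another 409 genes with a mean of at least 1 TPM had fewer than 10 counts in every library, so their TPM rests on very few reads.

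The highest named gene was Bc1 (gene ID 29294), which encodes a short non-coding RNA of neurons that is carried into dendrites. Its level was 8385, 18964 and 14422 TPM, from only 237, 562 and 531 estimated counts. Replicate 1 was the lowest, and the 3 values spread widely for the highest gene of the table (CV, the SD over the mean, of 38.1%). Its mean CPM was 21.5, against 898 for Cst3, so its place at the top rests on the length correction of few reads. Its counts are also shared with other models, so that place is uncertain. Cst3 (gene ID 25307), the secreted protease inhibitor cystatin C, stood at 8188, 12252 and 10099 TPM with 18117, 18513 and 18658 counts. Its TPM varied with a CV of 19.97%, but its CPM with a CV of 3.495%, so its counts per TPM (2.21, 1.51 and 1.85) differed more between libraries than its reads did. Meg3 (listed as RGD1566401), a maternally expressed long non-coding RNA, stood at 2948, 6621 and 4763 TPM and was lowest in replicate 1.

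Glial and neuronal genes shared the top of the order. Apoe (gene ID 25728), the main lipid carrier of brain, which astrocytes secrete, stood at 4458, 5052 and 4070 TPM. Mbp (gene ID 24547), myelin basic protein, stood at 7666, 2754 and 2475 TPM, so its rank rests on replicate 1. Camk2a (gene ID 25400), the alpha subunit of the calcium and calmodulin dependent kinase of excitatory synapses, stood at 4709, 2448 and 2951 TPM and was also highest in replicate 1. Calm3, 1 of the calmodulin genes, differed little between libraries at 2583, 2312 and 2767 TPM. The remaining named genes of the 30 highest were the cytoskeletal genes Actb (3488 ± 544 TPM) and Tuba1b (2101 ± 693 TPM), the glycolytic enzyme gene Gapdh (3291 ± 555 TPM), the ubiquitin gene Ubb (2808 ± 206 TPM), Zwint (1997 ± 412 TPM), Ercc3 (3776 ± 474 TPM), LOC103691231 (2276 ± 315 TPM) and LOC100363993 (4560 ± 442 TPM; RefSeq names it Tex16), each with the SD over 3 libraries.

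Some genes high in this order are not known for brain. Ercc3, a helicase subunit of the transcription and DNA repair factor TFIIH, had 18342, 23199 and 24541 counts. Olr894, annotated as an olfactory receptor gene, stood at 1611, 1682 and 1595 TPM, and another such model, LOC687896, at 1027, 1606 and 1301 TPM. The counts of these 3 genes were not whole in at least 1 library, so reads shared with another model may be part of them, which was not tested. Both receptor genes were picked with their values known.

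**Figure D1:**
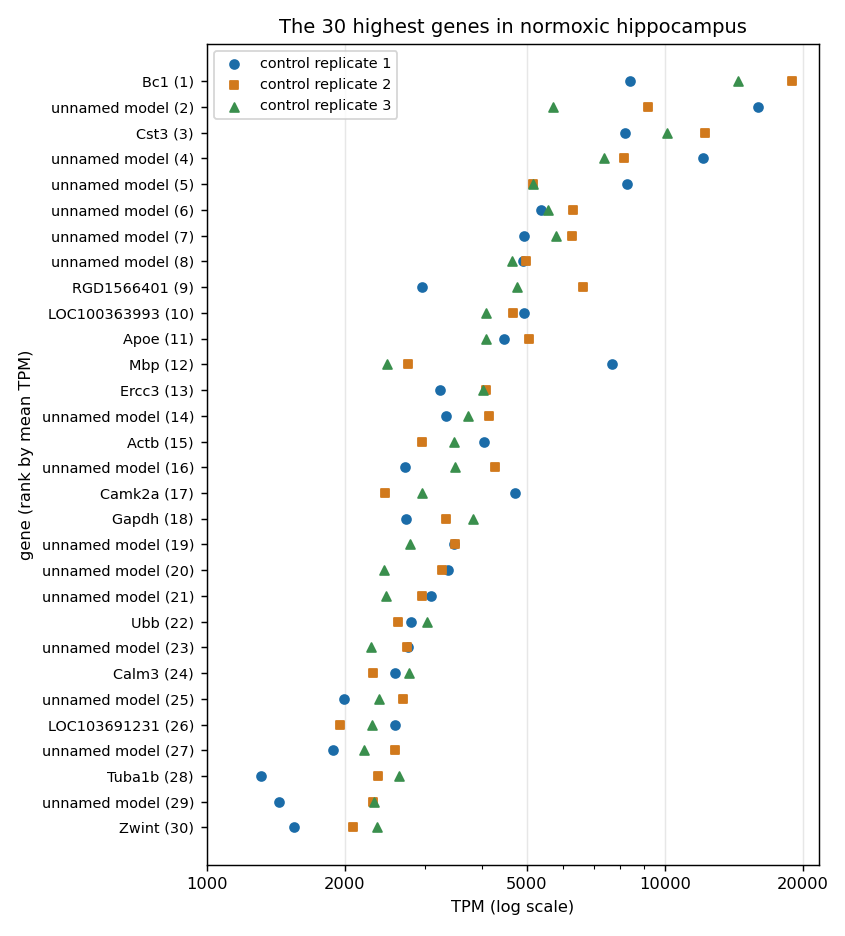
The 30 genes with the highest mean TPM, 1 row for each gene with its rank, against TPM on a log axis, with 1 symbol for each control library. Of the 30, 15 are models without a name, and Mbp (rank 12) shows replicate 1 at 7666 TPM against 2754 and 2475 TPM.

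The promoters of the genes were read as a feature that the choice of libraries did not use. A promoter here is the stretch from 250 bases before to 50 after the start of a gene in the RefSeq table of build GRCr8, which is not the build of the expression table. Of the genes, 15926 matched a promoter by identifier, and the first listed start was used for the 1694 genes with several. For 4 genes the 250 bases before the start are printed, since together they show the range of CpG content, and capitals mark each CG and the letters TATAAA. Gapdh lies at chr4:159652468-159652717 on the minus strand, Slc1a2 at chr3:109459859-109460108 on the plus strand, Apoe at chr1:88485817-88486066 on the minus strand and Hbb-b1 at chr1:167643521-167643770 on the minus strand.
Gapdh: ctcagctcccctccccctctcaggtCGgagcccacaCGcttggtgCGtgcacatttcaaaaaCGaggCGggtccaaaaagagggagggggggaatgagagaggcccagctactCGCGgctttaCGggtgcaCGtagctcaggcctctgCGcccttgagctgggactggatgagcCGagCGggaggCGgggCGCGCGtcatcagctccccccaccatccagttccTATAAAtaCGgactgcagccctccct
Slc1a2: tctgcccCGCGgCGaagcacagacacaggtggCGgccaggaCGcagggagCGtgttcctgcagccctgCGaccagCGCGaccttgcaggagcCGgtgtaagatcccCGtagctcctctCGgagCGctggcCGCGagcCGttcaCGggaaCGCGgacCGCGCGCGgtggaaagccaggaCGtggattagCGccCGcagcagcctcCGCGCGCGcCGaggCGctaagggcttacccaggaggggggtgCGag
Apoe: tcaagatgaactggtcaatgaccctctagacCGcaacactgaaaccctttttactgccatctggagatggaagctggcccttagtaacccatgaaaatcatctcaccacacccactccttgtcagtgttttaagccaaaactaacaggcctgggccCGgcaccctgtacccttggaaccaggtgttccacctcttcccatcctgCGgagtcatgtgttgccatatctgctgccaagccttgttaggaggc
Hbb-b1: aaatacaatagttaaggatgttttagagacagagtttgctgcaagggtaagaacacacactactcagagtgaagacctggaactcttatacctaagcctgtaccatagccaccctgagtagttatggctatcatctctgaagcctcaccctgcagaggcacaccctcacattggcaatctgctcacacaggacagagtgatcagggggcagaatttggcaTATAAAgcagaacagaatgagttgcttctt

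In these 250 bases Gapdh has 17 CG pairs and TATAAA beginning 26 bases before the start. Slc1a2, the main glutamate transporter of astrocytes at 1881 ± 186 TPM (SD, n = 3), has 33 CG pairs and no TATAAA in the 50 bases before the start. Apoe has 3 CG pairs at the first of its 3 listed starts. Hbb-b1, a beta globin gene at 11.7 ± 5.88 TPM (SD, n = 3), has 0 CG pairs and TATAAA 30 bases before the start. At the first listed starts, a high level came with CpG-rich and CpG-poor promoters among these 4. The CpG-poor case at a high level is Apoe alone, and Slc1a2 also has 2 listed starts. Which starts are used in these libraries was not tested.

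Over all matched genes, CpG content was higher in the higher abundance classes up to 1000 TPM. The observed over expected CpG ratio (the count of CG pairs over that given by the C and G content) had a median of 0.258 over 504 genes at 0 TPM, 0.327 over 2272 genes between 0.1 and 1 TPM, 0.609 over 3401 genes between 1 and 10 TPM, 0.794 over 6823 genes between 10 and 100 TPM and 0.813 over 1359 genes between 100 and 1000 TPM. It was 0.687 over 40 genes at 1000 TPM or more. The letters TATAAA, searched on the strand of the gene in the 50 bases before the start, stood in 2.24% of the matched promoters and in 2.46% of the 27457 first-listed promoters of the table. They stood in 4.56% of the promoters at 0 TPM, 1.03% of those between 10 and 100 TPM and 4 of 40 (10%) at 1000 TPM or more. Those 4 genes were Meg3, Gapdh, Ppia, a prolyl isomerase gene, and Mt3, an astrocyte and neuron metallothionein gene. Several lists had low median CpG ratios, each over few promoters. They included the leukocyte (0.186 over 7 promoters), microglial (0.204 over 8), perivascular macrophage (0.231 over 5) and choroid plexus lists (0.260 over 7). The erythroid list had 0.0804 over 6 promoters, of which Hba-a1, Hba-a2, Hba-a3 and Hbb-b1 hold TATAAA. Genes are not independent replicates, and the classes are a description with no test.

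**Figure D2:**
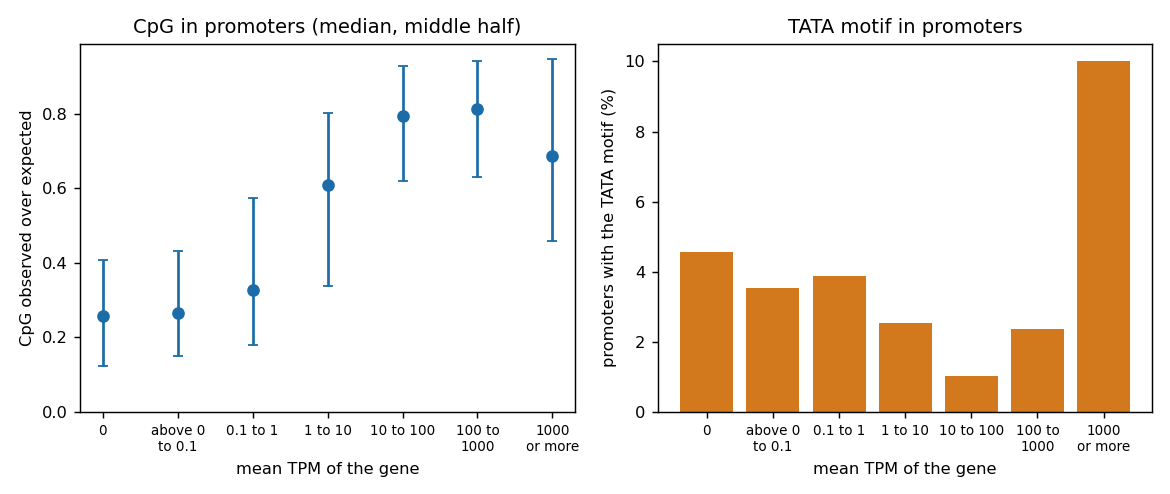
Left, the median CpG observed over expected ratio of promoters in classes of mean TPM, with bars from the lower to the upper quartile; right, the percent of promoters with TATAAA in the 50 bases before the start in the same classes. The CpG median goes from 0.258 at 0 TPM to 0.813 between 100 and 1000 TPM, and the last class holds 40 promoters only.

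Markers of the hippocampal cell classes were present. The pan-neuronal list of 12 genes had a median level of 629 TPM, led by the ubiquitin hydrolase gene Uchl1 (1216 ± 207 TPM) and the synaptic vesicle calcium sensor gene Syt1 (1106 ± 235 TPM; SD, n = 3). The excitatory list of 9 genes had a median of 613 TPM. Slc17a7, the vesicular glutamate transporter VGLUT1, stood at 1051, 1197 and 1474 TPM and made up 99.3% ± 0.242 of the 3 vesicular glutamate transporters. Hpca, the calcium sensor hippocalcin, stood at 1637, 607 and 945 TPM, with replicate 1 the highest. The interneuron list of 15 genes had a median of 83.3 TPM, with the neuropeptide genes Cck at 297, 579 and 529 TPM and Sst at 176, 295 and 271 TPM, both lowest in replicate 1. Gad2, an enzyme of GABA synthesis, stood at 170, 156 and 180 TPM and did not follow them. Of the 15 interneuron genes, 12 were lowest in replicate 1, where 38.9% of the 17356 genes at 1 TPM or more were lowest.

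Each hippocampal field had markers above 10 TPM. In the dentate list, C1ql3, a secreted synaptic protein gene, stood at 544, 279 and 358 TPM and Prox1, the granule cell transcription factor gene, at 132, 35.5 and 61.0 TPM. Both were highest in replicate 1, as were Rfx3 (72.3, 36.5 and 52.1 TPM), Pdzd2 (86.2, 47.6 and 54.4 TPM) and C1ql2 (79.1, 49.2 and 59.2 TPM). Plk5 (24.5, 6.33 and 7.41 TPM), Glis3 (9.98, 6.54 and 8.07 TPM) and Dsp (3.48, 1.22 and 1.52 TPM) had the same order of replicate 1 on top, Pdyn, the prodynorphin gene, was highest in replicate 3 (28.4, 22.9 and 31.7 TPM), and Lct reached at most 1.34 TPM and Tdo2 0.06 TPM. In the CA1 list, Wfs1, which encodes the endoplasmic reticulum protein wolframin, stood at 575, 186 and 73.7 TPM, but Mpped1 (103, 133 and 119 TPM) and Fibcd1 (70.1, 106 and 95.9 TPM) were lowest in replicate 1. CA2 was marked by Rgs14, a G protein regulator gene that restrains plasticity there (71.0, 30.6 and 48.2 TPM). CA3 was marked by Grik4, a kainate receptor subunit gene (31.5, 41.1 and 60.6 TPM), and Cpne4 (91.2, 57.6 and 97.1 TPM).

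Glial lists differed in their spread. The astrocyte list of 16 genes had a median level of 380 TPM and scores spanning 0.09 log2 units. Slc1a2 stood at 2094, 1746 and 1805 TPM, the glutamine synthetase gene Glul at 998, 829 and 883 TPM and the connexin gene Gjb6 at 52.4, 53.4 and 52.4 TPM, while Gfap, the filament of fibrous astrocytes, stood at 805, 286 and 363 TPM with replicate 1 apart. The microglial list of 14 genes had a median of 32.3 TPM and a median CV of 11.9%. Among its members were the cathepsin gene Ctss (102, 117 and 100.1 TPM) and the complement gene C1qa (48.5, 60.9 and 45.2 TPM), with no library far from the rest. The 9 oligodendrocyte precursor genes had a median CV of 15.8%: Olig1, a transcription factor gene of the lineage, stood at 125, 120 and 108 TPM and Gpr17, a receptor of committed precursors, at 37.7, 42.1 and 45.6 TPM.

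Genes of mature oligodendrocytes did not follow the precursor genes. The 15 measured members of that list summed to 12013 TPM in replicate 1 against 4649 and 4433 TPM, and all 15 were highest in replicate 1, where 37.5% of the 17356 genes at 1 TPM or more were highest. Besides Mbp, Mobp stood at 1617, 617 and 547 TPM and Cnp at 305, 150 and 161 TPM. The adhesion gene Mag (162, 76.6 and 75.4 TPM), the tight junction gene Cldn11 (248, 120 and 137 TPM), Mal (159, 67.7 and 79.2 TPM), Mog (110, 57.6 and 66.4 TPM) and Ermn (126, 53.2 and 49.1 TPM) showed the same. The smaller differences were those of the myelin regulator Myrf (65.1, 45.5 and 44.5 TPM) and the connexin gene Gjb1 (9.28, 6.08 and 5.88 TPM), and Opalin, Aspa, Ugt8 and Fa2h lay between. The list score, the mean over members of log2(TPM + 0.1) centred for each gene, ran over 1.05 log2 units across the 3 libraries and over 0.07 between replicates 2 and 3.

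**Figure D3:**
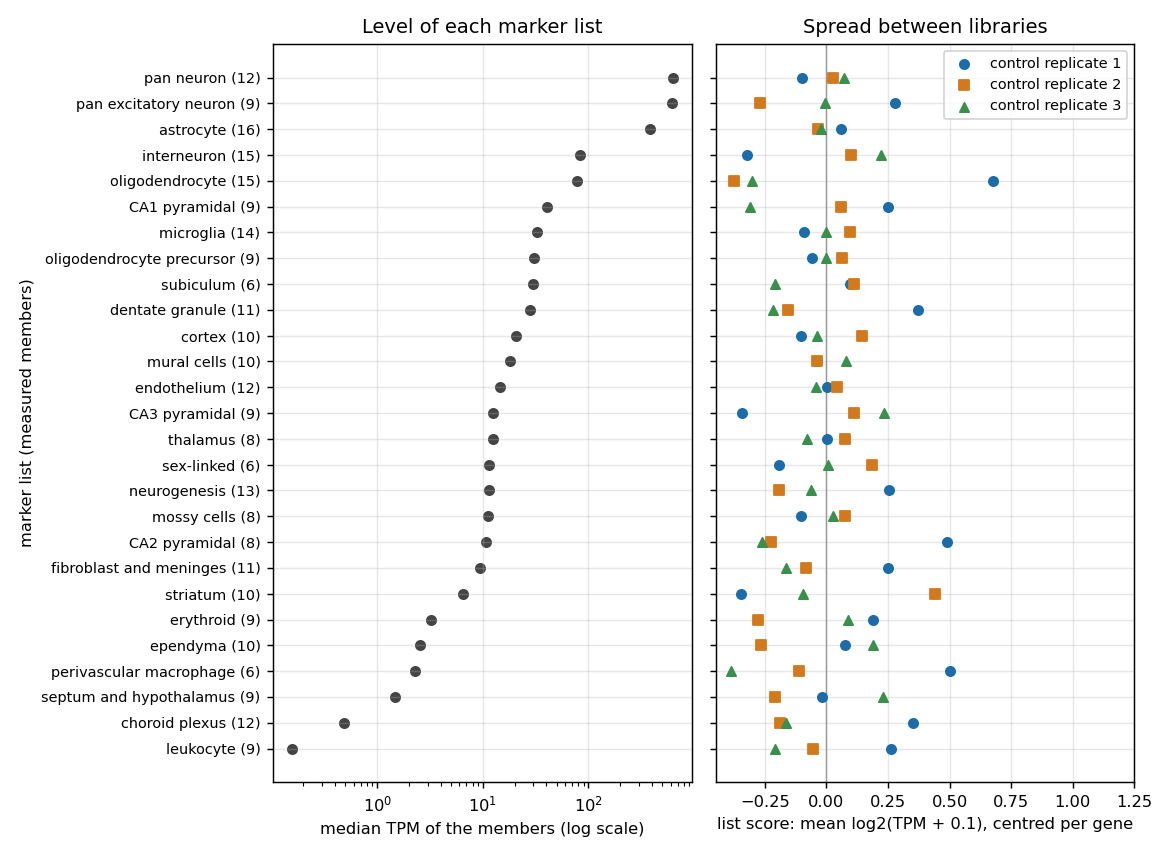
Left, the median TPM of the measured members of each marker list on a log axis; right, the score of each list in each control library, in log2 units around the mean of the 3 libraries. The oligodendrocyte score of replicate 1 lies 1.05 above that of replicate 2, while the astrocyte scores span 0.09.

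Vascular, blood and border genes covered a wide range of levels. Flt1, a receptor of vascular growth factor, stood at 199, 132 and 109 TPM from nearly equal counts of 1783, 1703 and 1813, and Cldn5, the tight junction gene of brain endothelium, at 41.5, 56.2 and 53.0 TPM. Rgs5, a pericyte gene, stood at 133, 116 and 121 TPM. Ptgds, the prostaglandin D synthase gene of meninges and oligodendrocytes, stood at 1664, 1194 and 932 TPM. Globin genes were present in every library: Hba-a1 stood at 331, 207 and 205 TPM, Hba-a2 at 127, 89.1 and 83.7 TPM, Hbb at 64.4, 30.4 and 61.7 TPM, Hbb-b1 at 15.4, 14.7 and 4.87 TPM and Hba-a3 at 6.79, 1.32 and 1.62 TPM. The counts of Hba-a1, Hba-a2, Hbb and Hbb-b1 are shared between near-identical copies, so the split among them is uncertain. Ahsp and Slc4a1, genes of red cell precursors, were under 1 TPM in every library. Alas2 ran from 0.39 to 1.61 TPM on only 7, 11 and 9 counts, so its TPM differed more than its reads.

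Marker lists of neighbouring tissue and of leukocytes ranged from near 0 to moderate levels. Of the cortical list, 8 of 10 genes stood at a mean of 1 TPM or more and 6 at 10 TPM or more, and of the thalamic list 7 of 8 and 5. Ttr, the transthyretin gene that marks choroid plexus, stood at 56.1, 23.8 and 13.1 TPM, and 7 of the 12 choroid plexus genes (Kl, Aqp1, Otx2, Sostdc1, Tmem72, F5 and Cldn2) were under 1 TPM in every library. The other 4, Prlr, Kcnj13, Folr1 and Clic6, had means between 1.24 and 1.96 TPM. All 10 genes of the striatal list reached a mean of 1 TPM: the dopamine receptor genes Drd1 (2.82, 5.72 and 3.08 TPM) and Drd2 (1.47, 2.23 and 1.55 TPM) were low, and Ppp1r1b was not (112, 69.3 and 58.4 TPM). Leukocyte genes were near 0: Ptprc, the common leukocyte antigen gene, stood at 1.89, 1.69 and 1.45 TPM, Cd79a and Mpo had 0 counts in every library, and only Cd3e had a higher value, with 279, 0 and 1 counts. Cd8a, the other T cell gene measured in the list, had 1, 1 and 3 counts.

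The subunits of receptors and kinases differed widely in level within each family. Of the 4 AMPA receptor subunits, Gria2, whose product limits calcium entry, made up 42.0% ± 1.31 of the summed TPM, Gria1 39.4% ± 2.95, Gria3 13.5% ± 1.12 and Gria4 5.16% ± 1.53 (SD, n = 3). The first 2 of these did not differ beyond their spread. Of the 4 GluN2 subunits of the NMDA receptor, Grin2b made up 66.2% ± 4.75 and Grin2a 27.1% ± 6.09, and the obligatory subunit Grin1 stood at 399, 417 and 417 TPM. Among the GABA-A alpha subunits, Gabra2 stood at 104, 123 and 154 TPM, Gabra5 at 109, 89.9 and 129 TPM and Gabra4 at 94.3, 43.4 and 51.2 TPM, while Gabra6, a cerebellar subunit, was under 1 TPM in every library. The order of Gabra2 and Gabra5 was not resolved by these libraries, since their levels overlap. Camk2a made up 78.0% ± 0.953 of the 4 CaMKII genes, although its own level ran from 2448 to 4709 TPM.

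Stress and oxygen genes give the normoxic starting level. Epas1, which encodes HIF-2 alpha, made up 72.5% ± 1.33 of the 3 HIF alpha genes at 135 ± 14.9 TPM and Hif1a 21.5% ± 1.58 at 40.1 ± 6.74 TPM (SD, n = 3). Of the prolyl hydroxylases that mark HIF for degradation, Egln2 made up 65.6% ± 5.36, Egln1 27.1% ± 3.96 and Egln3 7.31% ± 1.41. Vegfa, a HIF target and growth factor for vessels, stood at 66.1, 66.8 and 66.2 TPM, and the target Adm at 1.98, 1.18 and 0.82 TPM. The mineralocorticoid receptor gene Nr3c2 made up 77.3% ± 1.63 of the 2 corticosteroid receptor genes. Of 10 cytokine genes, Tnf, Il6, Il1b, Il1a, Ccl2, Ccl3 and Cxcl10 were under 1 TPM in every library, with at most 9 counts each. The heat shock genes Hspa8 (1247, 1073 and 1328 TPM) and Hsp90ab1 (790, 726 and 876 TPM) were high in every library.

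Immediate early genes, which neurons transcribe soon after activity, did not share 1 order of libraries. Arc, a synaptic scaffold regulator, stood at 154, 62.3 and 79.9 TPM and Egr1 at 130, 42.6 and 69.6 TPM, both highest in replicate 1. Fos (10.97, 10.2 and 21.4 TPM), Fosb (9.08, 7.92 and 17.3 TPM) and the phosphatase gene Dusp1 (17.6, 30.3 and 67.1 TPM) were highest in replicate 3. Fosl2 was highest in replicate 2 (22.0, 62.8 and 54.3 TPM). Of the remaining members, Egr3, Homer1, Junb, Nr4a1, Egr4, Egr2 and Npas4 were highest in replicate 1, and Jun, Ier2 and Bdnf in replicate 3. Replicate 2 was the lowest for the list score, and the 3 scores spanned 0.47 log2 units.

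Energy and translation genes differed in how even they were. The 20 cytosolic ribosome genes summed to 10906, 10360 and 10588 TPM, and the highest, Rps29, stood at 1549, 1453 and 1523 TPM. Glycolysis genes were lower in replicate 1: the 16 genes summed to 8738, 10739 and 12299 TPM, and 15 of them were lowest in replicate 1, as were 38.9% of the 17356 genes at 1 TPM or more. Aldoa, an aldolase gene, stood at 1576, 1942 and 2342 TPM and Pkm, the pyruvate kinase gene, at 624, 847 and 954 TPM, while Eno2, the neuronal enolase gene, had the opposite order (259, 217 and 115 TPM) from counts shared with other models. Synaptic vesicle genes went with glycolysis, with 12 of 14 lowest in replicate 1 (Syn2 at 375, 680 and 742 TPM). Postsynaptic genes did not, with 9 of 12 highest there (Camk2b at 1187, 480 and 616 TPM), as were 37.5% of the 17356 genes. Reference genes were even as a list, with scores spanning 0.04 log2 units, but single ones were not: Gapdh (2717, 3334 and 3824 TPM) and Actb (4041, 2952 and 3470 TPM) had different orders of the libraries. No mitochondrially encoded gene was matched by name.

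Spread between libraries was largest at low levels and did not sink to the counting error at high levels. The median CV of TPM was 14.6% over the 17356 genes at 1 TPM or more: 24.2% between 1 and 10 TPM, 11.6% between 10 and 100, 11.7% between 100 and 1000 and 13.4% at 1000 TPM or more. Counting alone would give medians of 13.1%, 4.03%, 1.70% and 0.867% in these classes. The common biological coefficient of variation of edgeR, the relative spread beyond counting, was 0.210, and 0.132, 0.228 and 0.246 without replicate 1, 2 and 3. Over 2 libraries the median CV was 9.54% without replicate 1, 13.1% without replicate 2 and 13.6% without replicate 3.

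**Figure D4:**
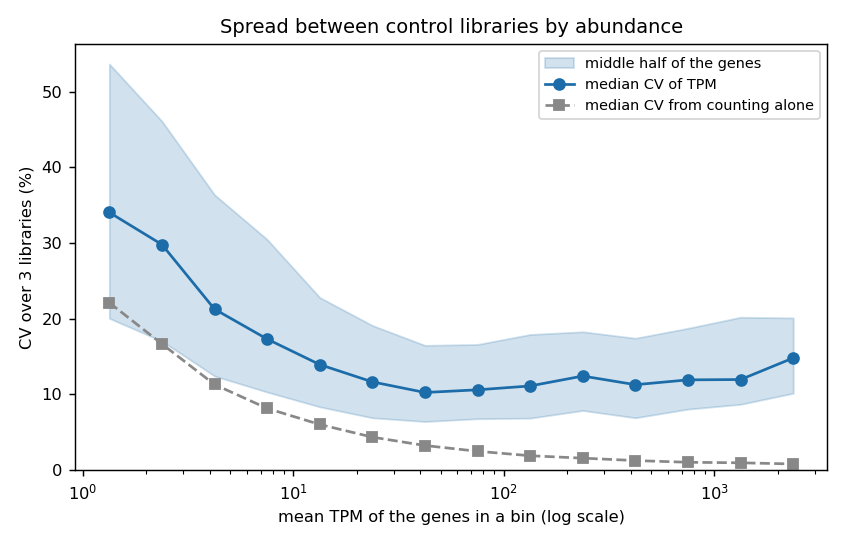
The CV of TPM over the 3 control libraries against mean TPM on a log axis, as the median of the genes in each bin (circles) with a band from the lower to the upper quartile, and the median CV that counting alone would give (squares). The curve for counting falls to 0.812% in the last bin drawn, from 1778 to 3162 TPM, and the measured CV does not. Genes above that bin are not drawn.

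The genes of lowest CV with a mean of at least 100 TPM hardly differed between the libraries. Oaz1, the inhibitor of polyamine synthesis antizyme, stood at 325.7, 325.5 and 325.0 TPM. B3gat3, a glycosyltransferase gene, stood at 124.1, 124.0 and 123.7 TPM, and Clstn1, a synaptic cadherin family gene, at 514, 509 and 508 TPM. Tma7, Khsrp, Bace1, the beta secretase gene, Prkcsh and 2 models without a name were also among the 10 lowest, which all had a CV of at most 1.03%. These 10 were picked for their evenness in TPM, and on the CPM scale the CV of Oaz1 was 0.962% in place of 0.114%.

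The least even genes above 20 TPM were of 2 kinds. For 9 of the 20 with the highest CV the counts were not whole, against 22.7% of the 8116 genes at 20 TPM or more. Atn1, the atrophin gene, stood at 35.6, 0.04 and 25.6 TPM and the ribosomal gene Rpl30 at 184, 297 and 4.65 TPM, both from shared reads. In the same way Wbp11 had 112, 84.0 and 0 counts while its copy Wbp11l1 had 1398, 1460 and 1751. Of 21 genes with 0 counts in 1 or 2 libraries and at least 100 in another, 19 had counts that are not whole. For 11 of the 20 the counts were whole, and 10 of these were highest in replicate 1.

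Among those with whole counts, Sncg, gamma synuclein, stood at 5.77, 5.34 and 96.0 TPM and was the only one not highest in replicate 1. Nts, the neurotensin gene, stood at 116, 12.1 and 4.34 TPM. It is in the list of 6 subicular markers, of which 4 were lowest in replicate 1. Of the 17356 genes at 1 TPM or more, 38.9% were lowest there. Wfs1, Lingo3, Ryr1, Epha8, Epha7, Strip2, Lrrc10b, a model without a name and Camk4, the nuclear calmodulin kinase gene, were also highest in replicate 1, with Epha7, an axon guidance receptor gene, at 159, 31.9 and 43.5 TPM and Camk4 at 132, 38.5 and 27.4 TPM.

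Replicate 1 differed in both directions, with 140 genes at least 2-fold above and 179 at least 2-fold below both others among the 11030 genes at 10 TPM or more (2.89% in all, of which 26.02% had counts that are not whole). In 273 of these 319 genes replicates 2 and 3 lay within 1.5-fold of each other. Above both was Adcy1, the calcium-stimulated adenylyl cyclase gene, at 579, 186 and 178 TPM, with Cadm2, a synaptic adhesion gene, at 348, 80.7 and 110 TPM. Below both were Nnat, an imprinted gene of developing neurons, at 152, 1234 and 1031 TPM and Cpne7 at 31.4, 299 and 286 TPM. Otof stood at 5.23, 45.0 and 50.9 TPM and Cpne2 at 5.39, 49.6 and 50 TPM, both lowest in replicate 1. The values of these genes and of those in the next list were known when they were chosen.

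Some genes known to be graded along the long axis of the hippocampus are given here for their values alone. The genes listed as higher toward the ventral pole were picked with their values known, so their common order is a description only, and 38.9% of the 17356 genes at 1 TPM or more were lowest in replicate 1. At least 2-fold below both other libraries in replicate 1 were the nuclear receptor gene Nr2f2 (17.8, 154 and 130 TPM), the serotonin receptor gene Htr2c (6.52, 66.5 and 68.5 TPM), Grp (2.30, 22.3 and 19.3 TPM) and the receptor gene Trhr (0.79, 5.36 and 5.25 TPM). Dcn (14.95, 37.7 and 22.1 TPM) and Coch (5.77, 6.96 and 8.44 TPM) were lowest there by less. Of 3 genes known for higher levels toward the dorsal pole, Wfs1 was highest in replicate 1, while the others were lowest there, Lct with 0, 8 and 3 counts and Iyd with 0, 4 and 4. Whether the libraries differ in the part of the hippocampus they hold was not tested. For markers of neighbouring brain tissue, summed TPM was 446, 325 and 291 for the cortical list, 225, 206 and 187 for the striatal list, 124, 129 and 111 for the thalamic list and 43.7, 27.5 and 27.3 for the list of septum and hypothalamus. Of the striatal list, Ppp1r1b had the highest mean, and 7 of the 10 genes were lowest in replicate 1, where the list score was -0.35 against 0.44 and -0.10 log2 units. The score ranges of the cortical, thalamic and septal and hypothalamic lists were 0.25, 0.16 and 0.44 log2 units. The cortical score was lowest in replicate 1 (-0.10 against 0.14 and -0.04), although its summed TPM was highest there. Septal and hypothalamic scores were -0.02, -0.21 and 0.23, highest in replicate 3, and Zic1 made up much of that sum (32.4, 12.7 and 11.3 TPM). Thalamic scores were 0.004, 0.08 and -0.08. The part of these markers in the differences of replicate 1 was not tested.

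**Figure D5:**
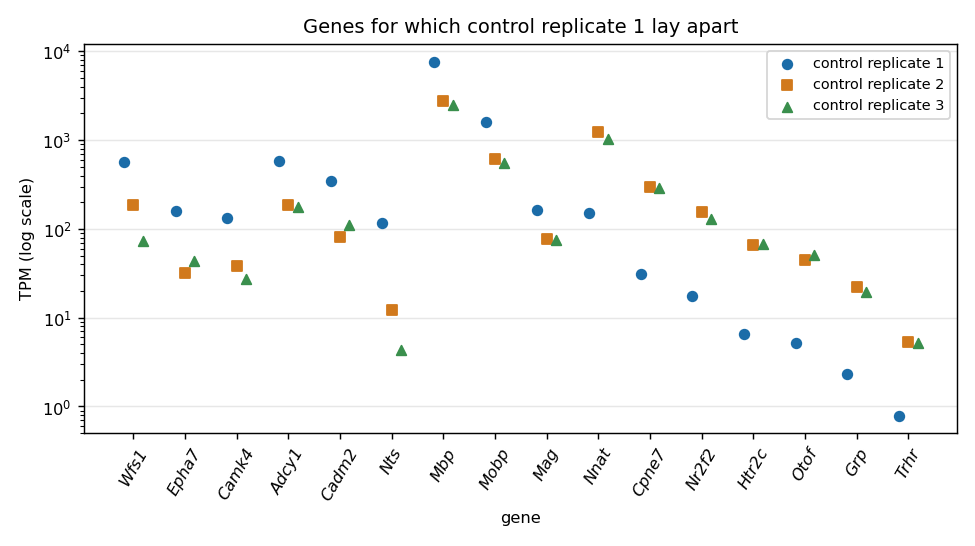
TPM on a log axis of 16 genes in the 3 control libraries, chosen after their values were seen, with 9 genes highest in replicate 1 on the left and 7 lowest in replicate 1 on the right. Replicates 2 and 3 lie close together for most of them, as for Htr2c at 66.5 and 68.5 TPM against 6.52 TPM in replicate 1.

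For some genes the TPM of the libraries differed more than their reads. With the same length in every library, a gene's estimated counts per TPM differ between libraries only by a factor common to all genes. For 10338 genes at 10 TPM or more with at least 100 counts in every library, CPM per TPM was compared between libraries. It differed by 1.5-fold or more in 141 genes (1.36%) and by 2-fold or more in 16. CPM takes out the adjusted library totals only, so part of the common factor may remain, and the median difference was 1.03-fold. In 101 of the 10338 genes the CV of TPM was over 20% while that of CPM was under 10%, as for Cst3 and for Flt1 (31.8% against 2.75%). The reverse, a CV of CPM over 20% with a CV of TPM under 10%, held for 11.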

How the data were processed

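Male rat hippocampus gave total RNA (TRIzol) that was read on BGI sequencers, as the labels' protocols state. HISAT2 2.2.0, RSEM 1.2.12, Bowtie2 2.2.5 and the genome build Rnor 6.0 are named, without roles, in the submitters' processing notes. No annotation and no strand setting is given in the sources used here, so antisense pairs cannot be told apart.

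The deposited table gives estimated counts, TPM and FPKM per gene, per the file headers. The TPM values made by the authors were used as deposited and the deposited FPKM values served for an alternative only. Estimated counts made by the authors were not whole (beyond 0.005) in 16.0% of values, and were rounded for the chi-square check and for edgeR 4.0.16 in R 4.3.3 (intercept-only design, TMM factors, filterByExpr), which estimated the spread and tested nothing. CPM values are rounded counts over TMM-adjusted totals. With 1 group, no comparison between groups was made. In simulated counts over 17163 genes the true coefficient was 0.2, except in 200 genes given a higher one, and edgeR gave 0.215.

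Libraries were grouped by title. Named genes were the 30 highest by mean TPM, the 4 highest members of each list and those under 1 TPM in every library, the 20 highest CVs from 20 TPM, the 10 lowest CVs from 100 TPM, and every member of the choroid plexus, oligodendrocyte, dentate granule, immediate early, erythroid, calmodulin and reference gene lists. Some genes that this rule names are not reported here. Other genes were chosen after their values were seen, as were the subunit families and the dorsal and ventral lists. The libraries and all lists were chosen with earlier results of these data known. Symbols shared by 2 gene IDs (6 symbols) were left out of the lists. RefSeq names (GRCr8) matched 19709 of 26949 identifiers. Alternatives were FPKM, shares of counts, CPM, RLE factors, a pseudocount of 1 in place of 0.1, other filters and leaving out each library. Genes with whole counts only and named genes only were alternatives added after seeing the data, with median CVs of 14.1% and 13.9%. Protein length was not analysed here. Python 3.11.15 with matplotlib 3.10.9 drew the figures.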

Additional observations from a re-analysis of the deposited data

How the results depend on the processing

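Leaving out each library kept every count of genes by TPM level and every share of the leading genes within the spread or within 1.5-fold. Without replicate 1 the spread was smallest. The median CV ran from 9.54% to 13.6% over the left-out libraries (14.6% with all). It fell whichever library was left out, so medians over 2 and over 3 libraries are not strictly comparable. The common biological coefficient of variation ran from 0.132 to 0.246 (0.210 with all). The range of the oligodendrocyte score ran from 0.0729 to 1.05 log2 units (1.05 with all) and that of the dentate score from 0.0587 to 0.587 (0.587 with all). In each of these the lowest value is that without replicate 1. With members at 1 TPM or more only, the dentate range was 1.07. With no filter the median CV was 22.9%, and from 10 TPM 11.6%. With FPKM, which has another scale, 901 genes reached 100 and 33 reached 1000, against 1913 and 83 by TPM. The 10, 100 and 1000 highest genes by mean held 7.54%, 22.3% and 53.0% of the mean TPM, and by estimated counts the highest 10, 100 and 1000 held 3.54%, 14.9% and 48.2%. The oligodendrocyte list had the widest range of the marker lists in 5 of 7 settings. It had rank 4 with members at 1 TPM or more only and rank 20 without replicate 1, so its place rests on that library. The setting without mitochondrially encoded genes was not run, since none was matched by name. No paired analysis was possible because only 1 group was described and no test was made. Genes under about 10 counts are limited by depth.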
